A study of Mus musculus with 16 samples.

Results

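The myeloid C-type lectin receptors described here are 10 genes, Clec4a1, Clec4a2, Clec4a3, Clec4d, Clec4e, Clec4n, Clec5a, Clec7a, Clec10a and Clec12a, taken by symbol from an expression table of 13085 genes in mouse monocytes. All 10 were in the table, each reached 1 CPM (reads relative to the scaled size of a library) in all 16 libraries, and all 10 were among the 12782 genes that passed the filter of at least 1 CPM in at least 2 libraries. C-type lectin receptors are surface proteins with which monocytes, macrophages and dendritic cells bind sugars and lipids of fungi, bacteria and dying cells. The activating ones signal through a tyrosine motif in their own tail or in an adaptor such as the Fc receptor gamma chain or DAP12, which recruits the kinase Syk and the adaptor protein Card9. Others carry an inhibitory motif that recruits phosphatases, and some mainly take up glycoproteins.

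The study compared C57BL/6 monocytes of NFAM1+/+ and NFAM1-/- mice, both bred from NFAM1+/- parents, where NFAM1 is itself a receptor with a tyrosine activation motif and the knockout lacks exons 2 and 3 after CRISPR editing of C57BL/6NTac zygotes. Cells were left unstimulated or were primed with IFN-γ for 1 h and stimulated with 1 ug/mL of MegaCD40L, a multimeric CD40 ligand. RNA was taken at 6 or 24 h. The IFN-γ dose in the labels is that of the study's methods for stimulating monocytes and differs from that of its RNA sequencing methods. The 16 libraries form 8 groups of 2, namely titled NFAM1+/+ and titled NFAM1-/- with and without the stimulus at each time, with 48295939 to 88514341 reads on the listed genes. The labels call the cells PBL monocytes while the study's methods describe enrichment from bone marrow, and the ages of the mice are not given in the sources used here. Stimulated means IFN-γ plus CD40L below, so the 2 agents cannot be told apart, and libraries with IFN-γ alone were not analysed here. The study used several mice of each genotype for these RNA samples, but no source used here ties a library to a mouse or culture, so p-values measure only the spread between these libraries, and whether libraries share a mouse was not tested.

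The values in each set of 4 libraries are given in 1 order: titled NFAM1+/+ replicates 1 and 2, then titled NFAM1-/- replicates 1 and 2. Nfam1 itself stood at 432, 408, 299 and 321 CPM in the unstimulated 6 h libraries and at 133, 129, 135 and 127 CPM in the stimulated ones. At 24 h it was 463, 495, 441 and 391 CPM without and 271, 252, 201 and 223 CPM with the stimulus. The titled NFAM1-/- libraries lay below the titled NFAM1+/+ ones in 3 of the 4 conditions and overlapped them in the stimulated 6 h libraries. Whole-gene counting also takes in the exons that were not deleted, so this level is a weak check of genotype. The log2 difference between titled genotypes was -0.44 (SE 0.08) without stimulus at 6 h, with both titled NFAM1-/- libraries below both others (limma, Benjamini-Hochberg adjusted p = 0.0514). Title and genotype tag disagree for 4 libraries, all at 24 h: replicate 1 of the titled NFAM1+/+ groups is tagged NFAM1-/-, and replicate 2 of the titled NFAM1-/- groups is tagged wild type. The stimulus and time of these libraries are not in conflict, so comparisons of stimulus and time average both titled genotypes, 4 libraries against 4. For the receptors, genotype results at 24 h are given by title, by tag and without these 4 libraries.

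Monocyte markers were abundant and moved with the stimulus. All 10 of the monocyte list (Ly6c2, Ccr2, Csf1r, Itgam, Cd14, Fcgr1, Cx3cr1, Spn, Lyz2 and Adgre1) were in the table, with Lyz2 the most abundant in all 16 libraries. Their summed level was 23410, 24800, 24990 and 22810 CPM unstimulated and 8505, 8595, 10350 and 9984 CPM stimulated at 6 h. At 24 h it was 30740, 30480, 28490 and 26520 CPM without and 8513, 9369, 11710 and 11780 CPM with the stimulus. Every stimulated library was thus below every unstimulated one, and the part of this shift in the receptor values was not tested. With the stimulus 5 of the 10 were called lower (against 20.6% of all genes tested) and 2 higher (19.1%) at 6 h. At 24 h 7 were called lower (18.7%) and 2 higher (14.6%). With own-total scaling these were 8 lower and 2 higher at 6 h, and 7 lower and 1 higher at 24 h. Quantile normalization gave the same counts, and the median at 6 h went from -1.10 to -1.83 and -2.31. No shares of all genes tested are given for these counts. Own-total scaling moved the median of all genes by -0.73 at 6 h and -0.33 at 24 h. The rise from 5 to 8 lower at 6 h with that scaling cannot be read apart from this shift. Bulk RNA cannot tell fewer cells of a type from less RNA per cell. Of the defining lymphocyte markers, Ms4a1, Pax5, Cd3e, Cd3d, Cd3g, Trac, Ncr1, Klrb1c, Klrb1a and Eomes were not in the table, and the summed level of the B cell and T cell lists, of which only Cd79a and Cd8a were listed, was at most 1.22 and 4.02 CPM. The red cell list (2 of 4 in the table) summed to at most 34.9 CPM, and all 6 of 6 basophil, mast cell or eosinophil markers to at most 123 CPM. At 6 h this last sum was lowest in titled NFAM1-/- replicate 1 and highest in titled NFAM1-/- replicate 2, both without (15 and 71.2 CPM) and with the stimulus (19.9 and 123 CPM).

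In unstimulated monocytes at 6 h the receptors spanned a wide range of levels per length, on the scale of mean CPM per kb of exon (GENCODE vM21, n = 4 libraries). Clec4d led with 469, apart from all others. Clec4a1, Clec7a, Clec4e, Clec4n and Clec4a3 followed with 217, 198, 183, 163 and 151 CPM per kb, each overlapping its neighbour in this order. Clec5a (67.3), Clec12a (51.7), Clec4a2 (34.0) and Clec10a (3.80) CPM per kb came last, with no overlap between neighbours. This order depends on the lengths, which are those of all annotated exons of a gene merged. By CPM alone Clec4e, with a mean of 908.5, stood above Clec4d, with 750.5, and their libraries overlapped. With the stimulus at 24 h Clec4e led with 253 CPM per kb, overlapping Clec4n at 127, while Clec10a at 3.46 and Clec4a2 at 1.56 were last and overlapped each other. Without stimulus at 24 h Clec5a was the lowest with 21.9 CPM per kb, and Clec10a stood at 35.2, overlapping Clec4a2. Clec4a1, Clec4a2 and Clec4a3 are close paralogs, and how reads shared between them were counted is not given in the sources used here.

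**Figure D1:**
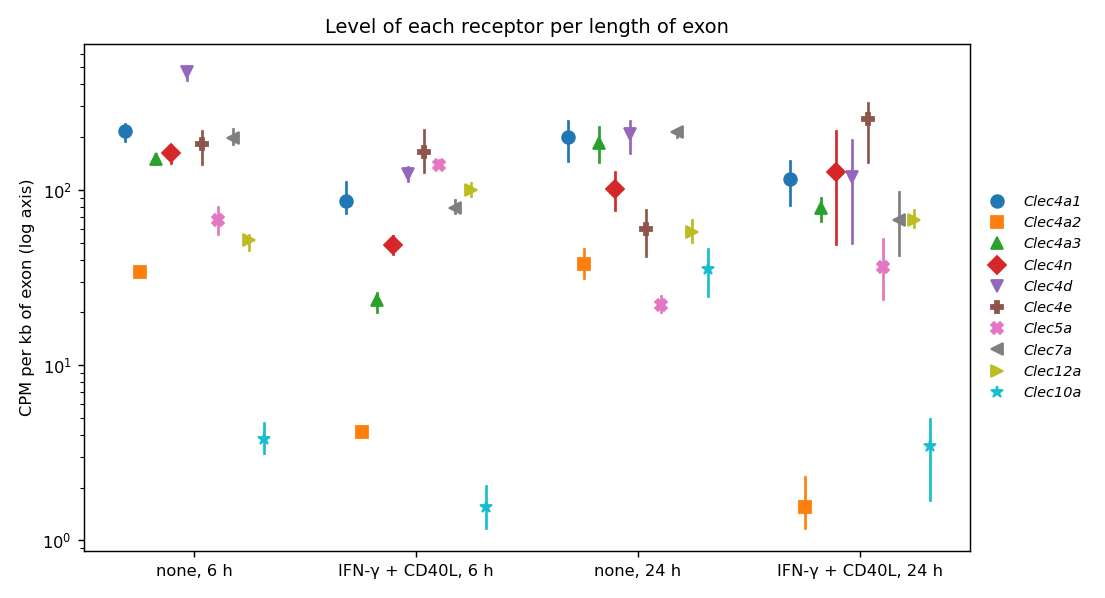
Mean CPM per kb of exon on a log axis for the 10 receptors in each stimulus and time condition, with lines from the lowest to the highest of 4 libraries. Clec4d is highest without stimulus at 6 h and Clec4e highest in both stimulated conditions, where its range overlaps that of the next gene.

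Stimulation lowered most of the receptors by 6 h. Relative to unstimulated libraries 7 of the 10 were called lower (against 20.6% of all genes tested) and 1 higher (19.1%), a call being a change of at least 2-fold with limma's Benjamini-Hochberg adjusted p under 0.05. The median log2 change was -1.33 over the 10 and -0.13 over all 12782 genes. At 24 h, 4 were called lower (18.7%) and 1 higher (14.6%), with medians of -0.87 and 0.01. The deposited scaling bears on these values: reads over scaled library size was 0.756 to 0.788 without stimulus, 1.24 to 1.32 stimulated at 6 h and 0.970 to 0.997 stimulated at 24 h. Scaling each library to its own total moved the median of all genes by -0.73 at 6 h and -0.33 at 24 h, and the share of calls that were higher from 48.1% to 21.9% and from 43.9% to 30.4%. Relative to the median of all genes, which this scaling does not alter, 8 of the 10 receptors lay below and 2 above at 6 h, and 6 below and 4 above at 24 h. Since this scaling moves every gene alike, Clec4a1, Clec7a and Clec10a were at -2.06, -2.05 and -2.04 with it at 6 h.

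**Figure D2:**
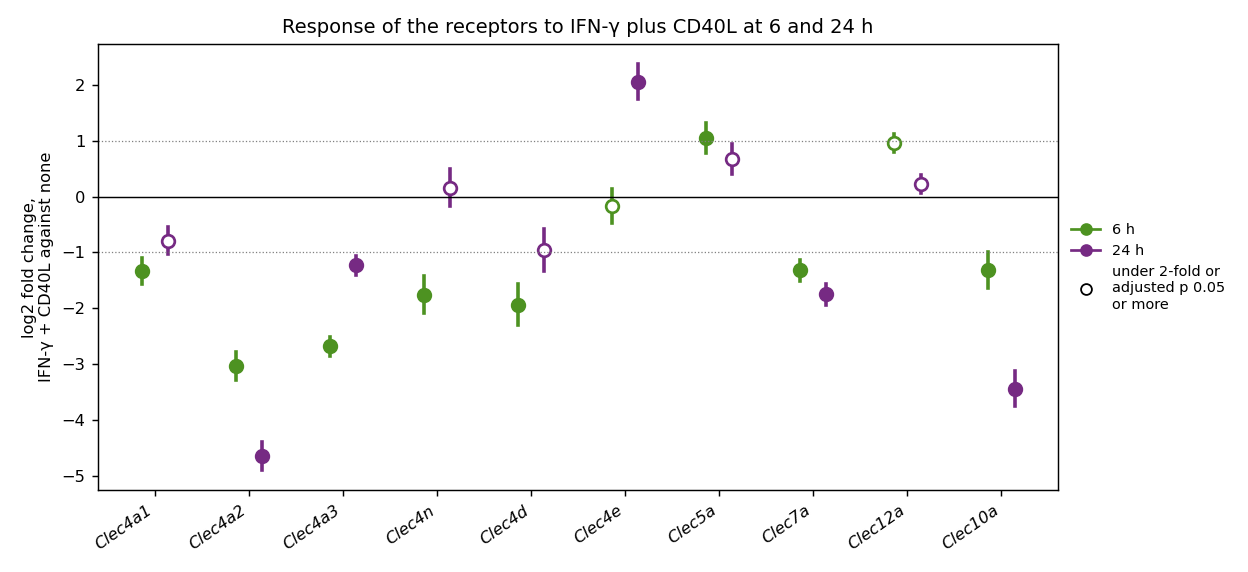
Log2 fold change of each receptor with IFN-γ plus CD40L at 6 h and 24 h (4 against 4 libraries), lines being 95% confidence intervals, filled points called and dotted lines marking 2-fold. Clec4a2 is the lowest at both times, at -3.03 and -4.64, and Clec4e is at -0.17 at 6 h, where its sign and size depend on the scaling, and at 2.06 at 24 h.

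Clec4e (Mincle), Clec4d (MCL) and Clec4n (Dectin-2) are activating receptors coupled to the Fc receptor gamma chain, which bind mycobacterial glycolipids in the case of the first pair and fungal mannans in the case of Dectin-2. In the reference their genes are neighbours on chromosome 6, in the order Clec4n, Clec4d and Clec4e, and 9 of the 10 receptors lie on that chromosome. Clec4e stood at 974, 1079, 879 and 701 CPM unstimulated and 1095, 834, 709.6 and 630.3 CPM stimulated at 6 h. The libraries overlapped, and the log2 change was -0.17 (95% interval -0.48 to 0.14). This value depended on the scaling: it was -1.23 and called lower with quantile normalization (limma, Benjamini-Hochberg adjusted p = 6.7e-07), -0.90 and under 2-fold with own-total scaling, and 0.0018 when each library was centred on its median. At 24 h Clec4e was 357, 381, 243 and 208 CPM without and 1549, 1504, 1254 and 716 CPM with the stimulus. Every stimulated library was above every unstimulated one, and Clec4e rose by 2.06 log2 units (SE 0.14, limma, Benjamini-Hochberg adjusted p = 1.1e-08, 4 of 4 libraries). Unstimulated Clec4e was itself lower at 24 h than at 6 h, so the 24 h change is set against a lower base.

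Clec4d stood at 803, 804, 716 and 679 CPM unstimulated and 215, 204, 179.8 and 185 CPM stimulated at 6 h, a change of -1.94 log2 units (SE 0.17) with all 4 stimulated libraries below (limma, Benjamini-Hochberg adjusted p = 1.2e-07). At 24 h it was 392, 393, 297 and 259 CPM without and 309.8, 207, 165 and 79.2 CPM with the stimulus. The stimulated libraries spread widely and 1 of them overlapped the unstimulated ones, with a log2 change of -0.96, under 2-fold. It was called lower with quantile normalization (-1.37), with own-total scaling (-1.29) and without unstimulated titled NFAM1-/- replicate 2 (-1.005), stimulated titled NFAM1-/- replicate 1 (-1.22) or stimulated titled NFAM1+/+ replicate 1 (-1.10). Clec4n was 256, 245, 224 and 202 CPM unstimulated and 63.0, 61.5, 77.1 and 72.6 CPM stimulated at 6 h. All 4 stimulated libraries were below, by -1.76 log2 units (SE 0.15, limma, Benjamini-Hochberg adjusted p = 1.2e-07). At 24 h Clec4n was 179.9, 168, 117 and 109.8 CPM without and 308, 212, 133 and 69.6 CPM with the stimulus. These libraries overlapped, and the log2 change of 0.16 (95% interval -0.17 to 0.50) turned negative with quantile normalization (-0.17), with own-total scaling (-0.17) and without stimulated 24 h titled NFAM1-/- replicate 1 (-0.073).

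The start-site windows of Clec4d and Clec4e are shown because these neighbours parted by 24 h, and that of Clec4a2 because it fell the most. Windows of 300 bases, 250 before and 50 from the annotated start, were given in RefSeq GRCm38.p6 for 8 of the 10 receptors, 10 windows in all. Capitals mark matches on either strand to 4 motifs: a GAS element TTCNNNGAA, an ISRE core (GAAA, any 2 bases, GAAA), a C/EBP motif TTGCNNAA and a PU.1 motif GGAAGT, held by 8.3%, 3.44%, 10.8% and 23.8% of 32851 windows of that length. Clec4a2 (chr6:123122440-123122739, plus strand) holds the GAS letters from base -42 and the PU.1 letters from -60 and -32. Clec4d (chr6:123261857-123262156, plus strand) holds the ISRE core letters from base 1, on the opposite strand, and the PU.1 letters from -35. Clec4e (chr6:123289822-123290121, minus strand) holds the C/EBP letters from base -66, on the opposite strand. Clec12a holds the C/EBP letters from -140, read on both strands, and the windows of Clec4a1, Clec4a3, Clec5a and Clec7a hold none of the 4. The matches are a description of letters only.
Clec4a2: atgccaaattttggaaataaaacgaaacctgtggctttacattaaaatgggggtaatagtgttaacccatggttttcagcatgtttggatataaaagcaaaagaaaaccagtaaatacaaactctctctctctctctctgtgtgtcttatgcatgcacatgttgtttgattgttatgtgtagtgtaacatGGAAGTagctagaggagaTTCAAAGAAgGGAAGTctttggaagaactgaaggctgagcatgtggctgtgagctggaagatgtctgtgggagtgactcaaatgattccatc
Clec4d: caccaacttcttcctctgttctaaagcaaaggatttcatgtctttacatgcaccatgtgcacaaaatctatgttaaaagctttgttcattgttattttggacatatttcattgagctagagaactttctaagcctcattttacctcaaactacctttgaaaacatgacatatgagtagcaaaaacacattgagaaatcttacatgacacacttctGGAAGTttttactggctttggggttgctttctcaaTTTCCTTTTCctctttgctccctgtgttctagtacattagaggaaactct
Clec4e: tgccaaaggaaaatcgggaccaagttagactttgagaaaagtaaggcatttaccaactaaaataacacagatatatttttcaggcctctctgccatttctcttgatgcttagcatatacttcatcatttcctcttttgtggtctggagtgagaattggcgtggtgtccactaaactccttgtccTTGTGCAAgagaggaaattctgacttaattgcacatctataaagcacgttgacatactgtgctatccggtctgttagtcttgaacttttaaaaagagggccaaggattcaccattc

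Clec7a (Dectin-1) binds fungal beta-glucan and signals through a motif in its own tail. It stood at 511, 483, 584 and 508 CPM unstimulated and 229.6, 194, 215 and 196 CPM stimulated at 6 h. At 24 h it was 530.0, 579.6, 569 and 579 CPM without and 258, 204, 134 and 112 CPM with the stimulus. Stimulated libraries were below unstimulated ones at both times, by -1.32 log2 units (SE 0.09) at 6 h and -1.75 (SE 0.09) at 24 h (limma, Benjamini-Hochberg adjusted p = 3.7e-09 and 2.1e-10, 4 of 4 libraries each). Clec5a (MDL-1), which couples to DAP12, was the 1 receptor called higher at 6 h. It rose from 251, 260.1, 307 and 216 CPM to 517, 527, 571 and 518 CPM at 6 h. All 4 stimulated libraries were above, by 1.06 log2 units (SE 0.13, limma, Benjamini-Hochberg adjusted p = 2.8e-06). The call was lost with own-total scaling (0.33), with quantile normalization (0.15) and without unstimulated 6 h titled NFAM1-/- replicate 2 (0.93). At 24 h Clec5a was 86.2, 95.1, 77.8 and 77.3 CPM without and 92.2, 125, 139 and 201 CPM with the stimulus, which overlapped, with a log2 change of 0.68 (0.34 with own-total scaling).

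The Clec4a genes belong to the dendritic cell immunoreceptor (DCIR) family, in which Clec4a2 (DCIR1) carries an inhibitory motif. Clec4a2 stood at 98.5, 94.5, 99.1 and 106 CPM unstimulated and 12.0, 13.2, 11.7 and 11.8 CPM stimulated at 6 h. At 24 h it was 134, 117, 101 and 92.1 CPM without and 6.70, 4.13, 3.92 and 3.46 CPM with the stimulus. No stimulated library came near the unstimulated ones, and Clec4a2 was at 12.2% of the unstimulated level at 6 h and 4.00% at 24 h. The log2 changes were -3.03 (SE 0.12) and -4.64 (SE 0.12), with limma's Benjamini-Hochberg adjusted p = 1.3e-11 and 2.2e-13, below in 4 of 4 libraries each time. Clec4a3 was 212, 202, 203 and 186 CPM unstimulated and 34.1, 31.5, 32.8 and 26.6 CPM stimulated at 6 h. By 24 h it was 305, 267, 222 and 192 CPM without and 119.5, 106, 102 and 88.6 CPM with the stimulus. Stimulated libraries were below at both times, by -2.68 log2 units at 6 h and -1.23 at 24 h (SE 0.08 each, limma, Benjamini-Hochberg adjusted p = 8.1e-13 and 5.7e-09, 4 of 4 libraries). Clec4a1 ranged from 115 to 384 CPM over all libraries and was below in all 4 stimulated libraries at each time, by -1.33 log2 units at 6 h and, under 2-fold, -0.79 at 24 h. The 24 h value was called lower with quantile normalization (-1.19) and own-total scaling (-1.13).

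Clec12a (MICL), an inhibitory receptor for uric acid crystals, moved the other way at 6 h. It stood at 301, 304, 288 and 249.6 CPM unstimulated and 606, 511, 562 and 539 CPM stimulated. All 4 stimulated libraries were above, by 0.96 log2 units (SE 0.08, limma, Benjamini-Hochberg adjusted p = 3.4e-08), just under 2-fold. The value was 0.035 with quantile normalization and 0.23 with own-total scaling. It was called higher when each library was centred on its median (1.13) and without unstimulated titled NFAM1-/- replicate 1 (1.01) or stimulated titled NFAM1+/+ replicate 2 (1.02). At 24 h the groups overlapped with a log2 change of 0.22, which was -0.20 with quantile normalization and -0.11 with own-total scaling. Clec10a (MGL1) is a galactose-type lectin that takes up glycoproteins and lies on chromosome 11 beside Mgl2. It was 9.31, 9.18, 12.1 and 13.5 CPM unstimulated and 3.42, 4.74, 5.91 and 3.82 CPM stimulated at 6 h. At 24 h it was 72.0, 80.6, 133 and 123 CPM without and 4.93, 7.10, 14.4 and 13.7 CPM with the stimulus. All stimulated libraries were below at both times, by -1.31 (SE 0.15) and -3.44 (SE 0.15) log2 units (limma, Benjamini-Hochberg adjusted p = 1.7e-06 and 5.8e-11, 4 of 4 libraries each).

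**Figure D3:**
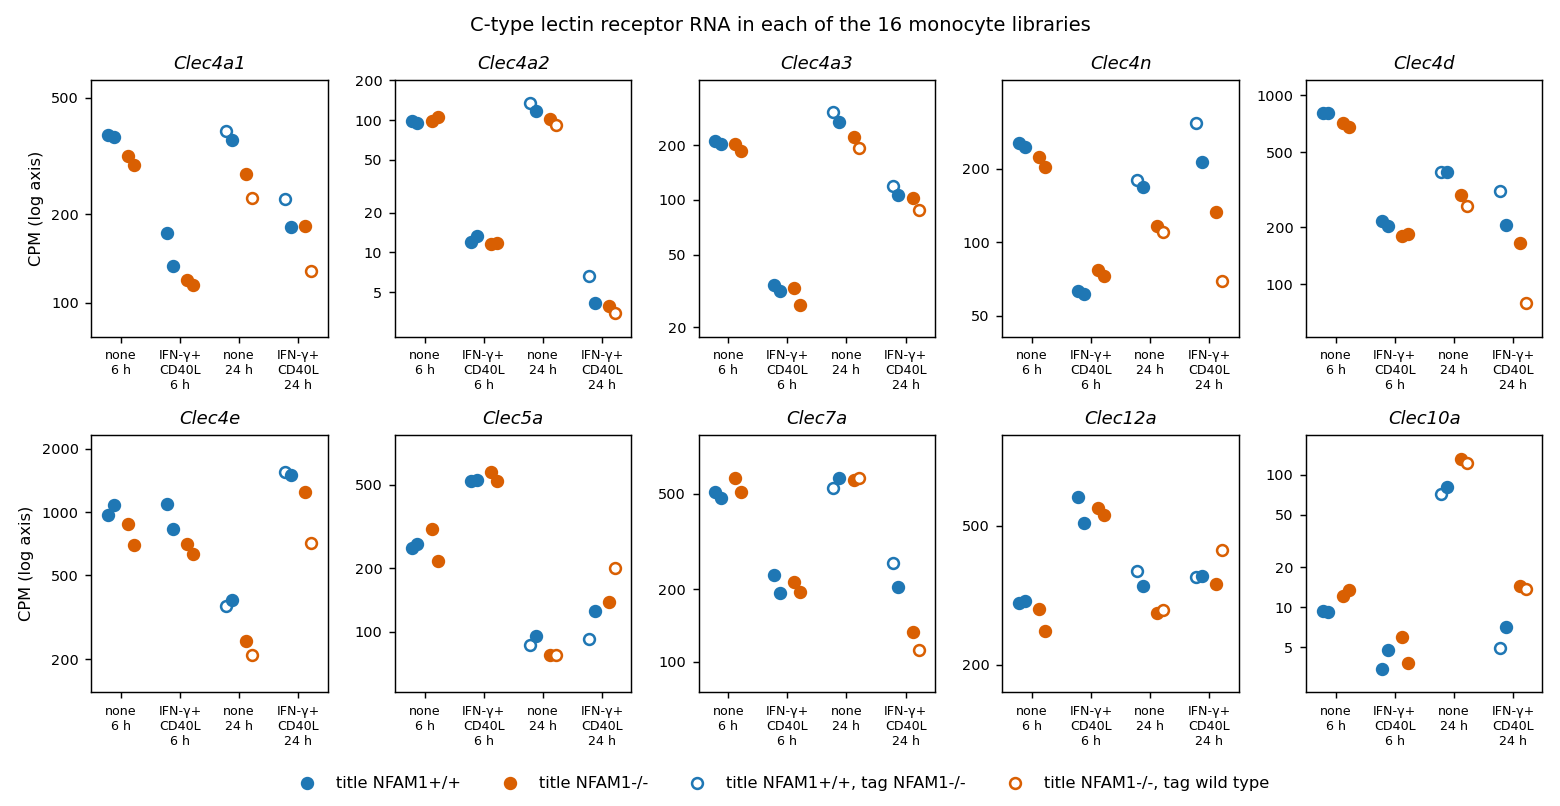
CPM on a log axis of each receptor in each of the 16 libraries, by stimulus and time, coloured by titled genotype, with open points for the 4 libraries whose tag names the other genotype. The stimulated Clec4a2 libraries lie between 3.46 and 13.2 CPM and the unstimulated ones between 92.1 and 134 CPM.

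Time in culture without stimulus changed 4 of the 10 receptors. Clec10a was called higher (against 13.2% of genes tested) and Clec4d, Clec4e and Clec5a lower (7.76%). Clec10a rose by 3.18 log2 units (SE 0.15), with all 24 h libraries above all 6 h ones (limma, Benjamini-Hochberg adjusted p = 5.6e-10). Clec4e, Clec5a and Clec4d were below in 4 of 4 libraries, with log2 changes of -1.64, -1.61 and -1.18. With the stimulus, Clec4a3 (1.73), Clec4n (1.20) and Clec10a (1.06) were called higher at 24 h than at 6 h (16.5%) and Clec4a2 (-1.47) and Clec5a (-1.99) lower (17.2%). The libraries of Clec4n and Clec10a overlapped in that comparison. The Clec4n value was under 2-fold without stimulated 24 h titled NFAM1-/- replicate 1 (0.97), and the Clec10a value was under 2-fold when each library was centred on its median (0.88), with quantile normalization (0.91) and with log2(CPM + 1) (0.92). Clec10a was also under 2-fold without stimulated 6 h titled NFAM1+/+ replicate 1 (0.94), stimulated 6 h titled NFAM1-/- replicate 2 (0.90) or stimulated 24 h titled NFAM1+/+ replicate 2 (0.93). All libraries of a time may share handling, so time and handling cannot be told apart.

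Neutrophil and dendritic cell markers moved in the direction of Clec10a in some comparisons and not in others. All 11 of 11 neutrophil markers were in the table, led by Csf3r in every library, and summed to 369, 407, 338 and 455 CPM unstimulated and 600.3, 450.4, 324 and 560.4 CPM stimulated at 6 h. At 24 h they summed to 1134, 1009, 1453 and 1184 CPM without and 413, 406, 432 and 357 CPM with the stimulus. The unstimulated 24 h libraries had the highest sums of these markers. Elane and Mpo went the other way. Their means were 4.77 and 5.96 CPM unstimulated at 6 h, and 2.45 and 4.28 CPM unstimulated at 24 h. All 6 of 6 dendritic cell markers were listed, and their sums in library order were 32.9, 38.5, 36.8 and 44.9 CPM unstimulated and 55.6, 41.5, 36.6 and 40.3 CPM stimulated at 6 h. At 24 h they were 92.9, 102, 167 and 194 CPM without and 38.5, 42.5, 41.2 and 37.6 CPM with the stimulus. Flt3 was the most abundant in unstimulated libraries, Clec9a in stimulated 6 h and Zbtb46 in stimulated 24 h libraries. Between 6 and 24 h without stimulus, where Clec10a rose, 9 of the 11 neutrophil markers were called higher and 0 lower, and of the 6 dendritic cell markers 4 higher and 1 lower. With the stimulus at 24 h, where Clec10a fell, 10 neutrophil markers were called lower and 0 higher, and 2 dendritic cell markers lower and 2 higher (2 and 1 with own-total scaling). With the stimulus at 6 h, where Clec10a also fell, 1 neutrophil marker was called higher and 0 lower, and 3 dendritic cell markers higher and 1 lower. With own-total scaling these became 0 and 0, and 2 and 1, and the median of the neutrophil markers turned from 0.63 to -0.099, so that its direction depended on the scaling. Between the stimulated times, where Clec10a was higher at 24 h, 3 neutrophil markers and 1 dendritic cell marker were called lower and 0 higher. With the stimulus at 24 h, where Clec4a2, Clec4a3 and Clec7a fell too, 2 of 2 tested red cell markers were called lower. So were 3 of the 6 basophil, mast cell or eosinophil markers. Between the stimulated times these counts were again 2 and 3 lower, and with the stimulus at 6 h they were 1 and 0 higher. Counts here with the deposited scaling are to be read against the shares of all genes tested given above for each comparison. No such shares are given for the counts with own-total scaling. The part of these lists in the receptor values, Clec10a included, was not tested.

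The response itself differed between the times for part of the receptors. The log2 response at 24 h minus that at 6 h passed 2-fold and an adjusted p of 0.05 for 5 of the 10 (against 31.5% of genes tested). It was positive for Clec4e (2.23), Clec4n (1.92) and Clec4a3 (1.46), and negative for Clec10a (-2.13) and Clec4a2 (-1.61). The difference in Clec4e had a SE of 0.20 and a Benjamini-Hochberg adjusted p of 4.1e-07 in limma. Clec5a, at -0.38, missed the threshold with limma's Benjamini-Hochberg adjusted p = 0.0737. It passed the adjusted p under 2-fold when each library was centred on its median (-0.54) and without the 4 libraries of conflicting labels (-0.44). With each library left out in turn it ranged from -0.51 to -0.25, and leaving out a single library could also make it pass. It turned positive with own-total scaling (0.017) and quantile normalization (0.33). Clec4d, at 0.98 just under 2-fold, passed it with quantile normalization (1.41), with own-total scaling (1.38), without the 4 libraries of conflicting labels (1.05) and without unstimulated 24 h titled NFAM1-/- replicate 1 (1.03), stimulated 24 h titled NFAM1+/+ replicate 2 (1.13) or stimulated 24 h titled NFAM1-/- replicate 2 (1.24). Own-total scaling moved the median difference of all genes by 0.40.

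Between titled genotypes at 6 h, limma called 0 of the 10 receptors without stimulus (against 0.0861% of genes tested) and 0 with it (0%), and 1 and 2 of them had an unadjusted p under 0.05 (against 10.1% and 14.6% of genes tested). Without stimulus the libraries of the 2 genotypes did not overlap for 7 receptors, 2 higher and 5 lower in titled NFAM1-/- (42.2% of genes tested do so in either direction). With the stimulus they did not overlap for 5, 1 higher and 4 lower (42.4%). Clec4e was lower in both titled NFAM1-/- libraries in each condition, by -0.38 (95% interval -0.82 to 0.05) and -0.51 (-0.95 to -0.08) log2 units. The response to the stimulus at 6 h did not differ by genotype past the threshold for any receptor (0 called by limma, 0% of genes tested, 0 with an unadjusted p under 0.05, which 8.53% of genes tested reached).

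At 24 h the genotype results depended on the label used and on the fit. By title, 3 of the 10 receptors were called in stimulated cells (against 0.579% of genes tested), and 8 had an unadjusted p under 0.05 in limma (15.6%). The libraries did not overlap for 8, 2 higher and 6 lower in titled NFAM1-/- (48.2%). As listed above, Clec4n was 308 and 212 CPM in titled NFAM1+/+ and 133 and 69.6 CPM in titled NFAM1-/- libraries. Clec4d was 310 and 207 against 165 and 79.2 CPM, and Clec10a 4.93 and 7.10 against 14.4 and 13.7 CPM. In each of the 3 genes the groups did not overlap, and for Clec4n and Clec4d the highest and the lowest value were the pair of libraries with conflicting labels. By title the log2 differences were -1.41 for Clec4n (SE 0.22), -1.15 for Clec4d (SE 0.24) and 1.25 for Clec10a (SE 0.21). Their Benjamini-Hochberg adjusted p in limma were 0.0111, 0.0349 and 0.0156, with 2 of 2 libraries in that direction. All 3 calls were lost with only the groups compared in the fit (adjusted p = 0.181, 0.213 and 0.181) and with a prior without trend (0.0803, 0.126 and 0.0803), and that of Clec4d with a robust prior (0.071). Of the monocyte markers 1 of 10, Cd14, was called between titled genotypes in the same libraries, at -1.84 log2 units. The summed monocyte markers were higher in both titled NFAM1-/- libraries. This sum was led by Lyz2 and Ly6c2, with means of 6195 and 2572 CPM in stimulated 24 h libraries. By log2 difference 7 of the 10 markers were higher and 3 lower in titled NFAM1-/-, with a median of 0.19. Markers thus moved with this result in both directions, and their part in it was not tested. Clec7a differed by -0.91 by title, under 2-fold (limma, Benjamini-Hochberg adjusted p = 0.00766, 2 of 2 libraries), by 0.29 by tag (adjusted p = 1.00) and by -0.61 without the 4 libraries of conflicting labels (0.317).

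By tag limma called 0 of the 10 (against 0.0235% of genes tested), with 1 at an unadjusted p under 0.05 (3.61%). The libraries did not overlap by tag for 1 receptor higher and 1 lower (29.3%). The log2 differences were 0.74 for Clec4n, 0.82 for Clec4d and -0.23 for Clec10a. Without the 4 libraries, which leaves 1 library a group at 24 h whose spread is taken from the other groups, limma called 0 of the 10 (0.11%), with 4 at an unadjusted p under 0.05 (4.16%). The differences were then -0.67, -0.33 and 1.02 log2 units for Clec4n, Clec4d and Clec10a. No genotype difference of a receptor in stimulated cells at 24 h was called under both labels. Leaving out stimulated 24 h titled NFAM1+/+ replicate 1 or titled NFAM1-/- replicate 2, both with conflicting labels, left none of the 10 called. Clec4n was then at -1.14 and -0.94, Clec4d at -0.86 and -0.62, and Clec10a at 0.98 and 1.28. Receptors were still called without titled NFAM1+/+ replicate 2 and without titled NFAM1-/- replicate 1, whose labels do not conflict. Unstimulated at 24 h, limma called 0 of the 10 by title (0.289%; 7 at an unadjusted p under 0.05, against 10.9% of genes tested), 0 by tag (0.0156%; 0 at that p, against 2.56%) and 0 without the 4 libraries (0.0313%; 5 at that p, against 4.62%). The libraries did not overlap by title for 1 receptor higher and 8 lower (45.4%), and by tag for 1 lower (25.5%). All 6 of the dendritic cell markers were higher in both titled NFAM1-/- libraries there, with a median of 0.84 log2 units, 0 called by limma, 1 past the adjusted p under 2-fold and 4 at an unadjusted p under 0.05, in the direction of Clec10a (0.75), and their part in it was not tested. Of the 11 neutrophil markers 9 were higher there by title, 5 of them without overlap, with a median of 0.37 log2 units over the 11 and 0 called by limma. Their part was not tested either. By tag the sums of both lists overlapped. The 11 tested output genes of Syk and Card9 signalling include cytokine genes such as Tnf and Il6, and also Ptgs2. They summed to 454.7, 469, 278 and 218.5 CPM without and 1846, 1922, 1563 and 1672 CPM with the stimulus at 24 h. Tnf was the most abundant of them in each library without the stimulus and Ptgs2 in each with it. By log2 difference 10 were lower and 1 higher in titled NFAM1-/- without the stimulus, and 9 and 2 with it. By title these sums and the Nfam1 levels did not overlap between genotypes in either condition, and by tag both overlapped in each. At 6 h, where title and tag name the same genotype, the sums were 736.9, 735, 576 and 468 CPM without and 3768, 3308, 2554 and 2565 CPM with the stimulus, lower in titled NFAM1-/-. No label was chosen from these values. The difference in the response between genotypes at 24 h, a comparison added after the values were seen, was called for 0 of the 10 by limma by title (0.274% of genes tested; 4 at an unadjusted p under 0.05, against 12.2%), by tag (0.0235%; 0 at that p, against 2.35%) and without the 4 libraries (0.00782%; 1 at that p, against 3.77%). By title Clec7a, at -0.96 log2 units (SE 0.17), passed the adjusted p and was just under 2-fold (limma, Benjamini-Hochberg adjusted p = 0.0308). It was at 0.37 by tag (adjusted p = 1) and at -0.59 without the 4 libraries (adjusted p = 0.9997).

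**Figure D4:**
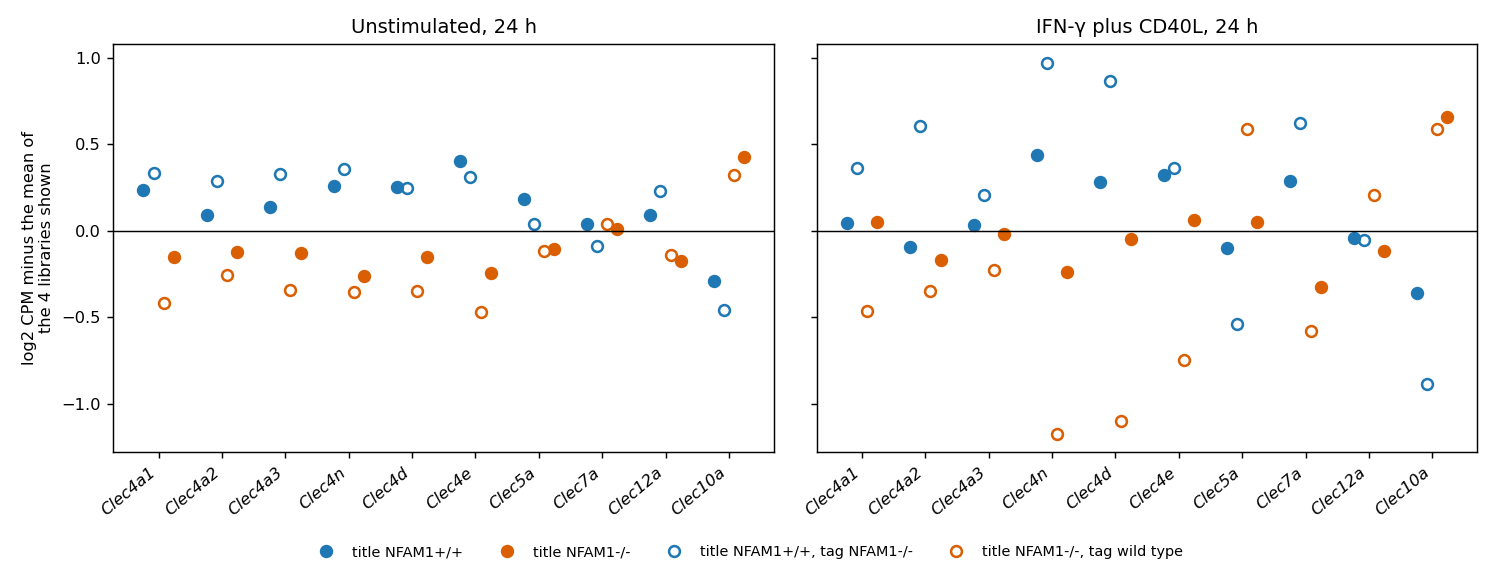
Log2 CPM of each receptor at 24 h minus the mean of the 4 libraries shown, without stimulus and with it, coloured by titled genotype, with open points where the tag names the other genotype. With the stimulus the open points of Clec4n and Clec4d are the extremes, at 308 and 69.6 CPM and at 310 and 79.2 CPM.

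The genes around the receptors are given by lists, to be read against the shares of all genes tested called higher and lower, 19.1% and 20.6% at 6 h and 14.6% and 18.7% at 24 h. These shares are for the deposited scaling, and no shares are given for the list counts with other scalings. The adaptors Fcer1g (Fc receptor gamma chain), Tyrobp (DAP12) and Hcst (DAP10) had 0 of 3 called by limma at either time, with 2 and 3 at an unadjusted p under 0.05 (against 79.4% and 76.5% of genes tested). Fcer1g changed by 0.46 and 0.50 log2 units at 6 and 24 h and Tyrobp by -0.34 and -0.79, each in 4 of 4 libraries. With own-total scaling Fcer1g turned negative at 6 h (-0.27) and was at 0.17 at 24 h, and Tyrobp was called lower at both times (-1.07 and -1.12), as was Hcst at 24 h (-1.15). Of 14 kinases and signalling genes, 3 were called higher and 2 lower at 6 h, and 5 higher and 2 lower at 24 h. Malt1, a protease partner of Card9, rose by 1.65 and 3.81 log2 units. Card9 fell by 1.65 at 6 h, and its value of -0.74 at 24 h was under 2-fold. Syk, the kinase downstream of the activating receptors, was at -0.05 and 0.24. With own-total scaling 0 of the 14 were called higher and 3 lower at 6 h, and 3 higher and 3 lower at 24 h, with Malt1 under 2-fold at 6 h (0.92), Card9 called lower at 24 h (-1.07) and Syk at -0.78 and -0.093. Of 3 inhibitory phosphatases only Ptpn6 (SHP-1) was called, at 24 h, with 1.28 log2 units, the list having 0 called by limma and 2 at an unadjusted p under 0.05 at 6 h. With own-total scaling the Ptpn6 value was under 2-fold (0.95) and Inpp5d was called lower at 24 h (-1.16).

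Of 46 other C-type lectin receptors 32 were in the table and 31 were tested, and 13 were called lower and 10 higher at 6 h, and 16 lower and 8 higher at 24 h. Their median log2 changes were -0.68 and -1.47, and -1.41 and -1.80 with own-total scaling (16 called lower and 8 higher, and 17 and 8). The neighbours of the Clec4a genes, Clec4b1 and Clec4a4, fell by 3.24 and 2.36 log2 units at 6 h. At 24 h Clec4b1 fell by 5.18, while Clec4a4 was at -0.57, under 2-fold, with overlapping libraries. Mgl2, the neighbour and closest relative of Clec10a, averaged 0.705 CPM unstimulated and 0.338 CPM stimulated at 6 h, and 13.7 CPM unstimulated and 0.156 CPM stimulated at 24 h. Both genes were highest without stimulus at 24 h, while the mean with the stimulus was higher at 6 h for Mgl2 and higher at 24 h for Clec10a. Of 14 output genes of Syk and Card9 signalling 11 were tested (Il10, Il23a and Csf2 were not in the table), with 7 called higher and 2 lower at 6 h and 5 higher and 3 lower at 24 h. CD40 and IFN-γ act on many of these output genes too. Tnf rose by 2.95 and 2.16 log2 units and Ptgs2 by 7.85 and 8.34, while Il1b fell by 1.25 at 6 h and was at 0.45 at 24 h, where the libraries overlapped. With own-total scaling 4 output genes were called higher and 4 lower at 6 h, and 5 and 4 at 24 h, with medians of 0.61 and 1.01.

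**Figure D5:**
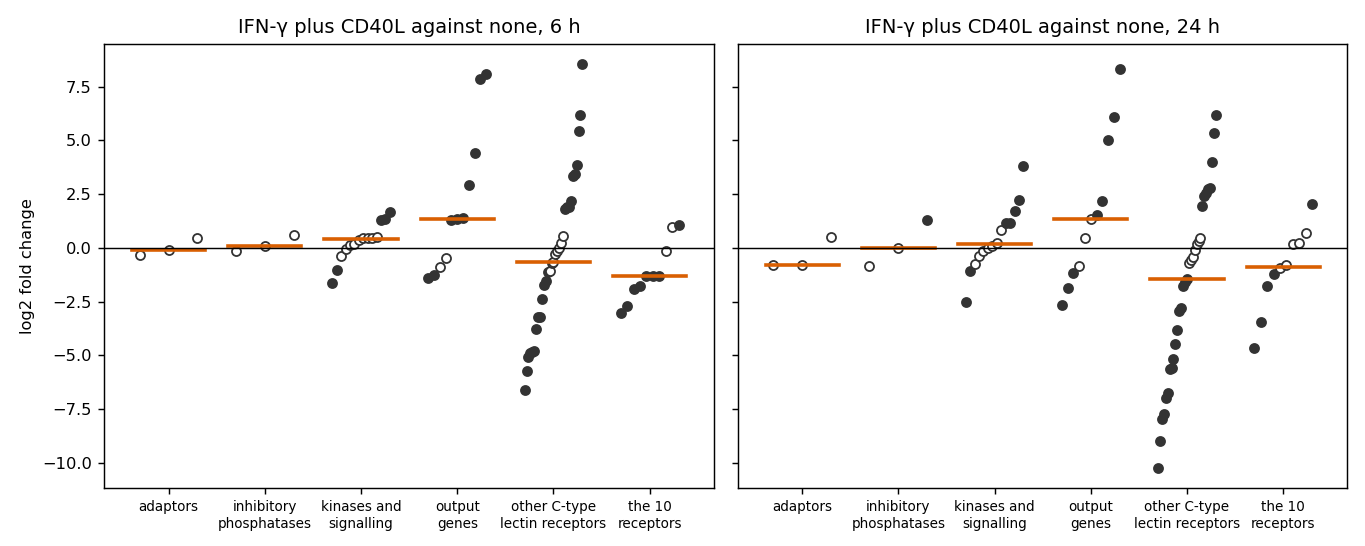
Log2 fold change with IFN-γ plus CD40L at 6 and 24 h for each tested gene of 5 lists and the 10 receptors, filled where called, with the median of each list as a bar. The bar of the 10 receptors is at -1.33 and -0.87, and that of the output genes at 1.34 at both times.

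Across the 16 libraries, which share stimulus, time and scaling, the receptors fell into different patterns. Pearson's r of the log2 values ran from -0.89 for Clec4a3 and Clec12a to 0.96 for Clec4a2 and Clec7a. Among tested genes other than the 10, the most alike by r were Lgmn for Clec4a2 (0.994), Adgre5 for Clec4a3 (0.984), Metrnl for Clec4a1 (0.962) and Cd9 for Clec7a (0.978). They were Cd14 for Clec4d (0.974), Sestd1 for Clec4e (0.955), Slc16a3 for Clec4n (0.960), Ppp3cb for Clec5a (0.986), Idh2 for Clec10a (0.981) and Hmox2 for Clec12a (0.965). These are descriptions over n = 16 libraries in 4 conditions.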

How the data were processed

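RNA of 16 libraries was sequenced for the study (non-stranded polyA, paired reads), and the authors used FastQC, STAR, Rsubread, edgeR and limma-voom, versions not given in the sources used here, with build GRCm39 (mm39) in the submitters' processing notes. The deposited values are log2 CPM values relative to a scaled library size, with 0.5 reads added to each count, for 13085 genes. Whole reads were recovered for 100% of values in each library (tolerance 0.01 reads), giving depth and CPM. limma 3.58.1 in R 4.3.3 was fitted to the deposited log2 values of the 8 title groups with a trended prior (8 residual and 5.377 prior degrees of freedom), two-sided, Benjamini-Hochberg over 12782 genes reaching 1 CPM in 2 or more libraries, 303 being left out. A call needed at least 2-fold and an adjusted p under 0.05. The fit was tested on simulated data. Genes named were the 10 receptors, Nfam1, the genes most like each receptor by Pearson's r and genes of the fixed lists, a few of which are not reported here. The members and lists were chosen with earlier results of these data known. Exon lengths came from GENCODE vM21 and promoters from RefSeq GRCm38.p6, another build, so coordinates are given for the promoter windows only. Alternatives covered filter, scaling, pseudocount, prior, weights, fold minimum, genotype label and each library left out. The 24 h genotype-by-stimulus comparison with its alternatives, changes relative to the median of all genes and the scalings of the list genes were added after the values were seen.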

Additional observations from a re-analysis of the deposited data

Results flagged for a closer look

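For 9 of the 10 receptors the response to IFN-γ plus CD40L differed between 24 h and 6 h by a test of the difference itself in limma, with or without a 2-fold difference, which is what marks them for a closer look. The log2 response at 24 h minus that at 6 h was 2.23 for Clec4e, 1.92 for Clec4n, 1.46 for Clec4a3, 0.98 for Clec4d and 0.54 for Clec4a1, a more positive log2 change at 24 h, which for Clec4a3, Clec4d and Clec4a1 was a smaller fall than at 6 h. It was -2.13 for Clec10a, -1.61 for Clec4a2, -0.74 for Clec12a and -0.43 for Clec7a, a more negative one, which for Clec10a, Clec4a2 and Clec7a was a larger fall than at 6 h. Such differences take in changes of the unstimulated level between the times, for example 3.18 log2 units for Clec10a and -1.18 for Clec4d. The stimulated levels of Clec10a and Clec4d changed by 1.06 and -0.20 between the times. With own-total scaling and with quantile normalization 8 of the 10 passed the test, Clec7a being at -0.033 and -0.076 (adjusted p = 0.809 and 0.578 in limma). Clec12a was at -0.34 and -0.24 with these scalings, and Clec4a1 missed the threshold when each library was centred on its median (0.38, adjusted p = 0.0536). Clec5a (-0.38, adjusted p = 0.0737) did not pass as reported. It passed under 2-fold when centred in this way (-0.54, adjusted p = 0.0185) and without the 4 libraries of conflicting labels (-0.44). With each library left out in turn Clec5a ranged from -0.51 to -0.25, and leaving out a single library could also make it pass. Without genotype in the model 7 passed, Clec4a1 (adjusted p = 0.0691) and Clec7a (0.142) missing it. Of all 12782 genes, 8588 had an adjusted p under 0.05 in this test and 4024 were also past 2-fold, so such a difference was common. Time and handling of the libraries cannot be told apart.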

How the results depend on the processing

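Over 1208 checks of 42 receptor values, 1137 kept direction and side of the threshold, 34 lost the call, 26 gained it and 11 changed sign. The sign changes were Clec4e with stimulus at 6 h when centred on medians (0.0018, against -1.23 and a call with quantile normalization); Clec4n with stimulus at 24 h with quantile normalization (-0.17), own-total scaling (-0.17) and without stimulated titled NFAM1-/- replicate 1 (-0.073, the range with each library left out being -0.073 to 0.395); Clec12a at 24 h (-0.20 and -0.11 with these scalings); the Clec5a difference between times (0.33 and 0.017); and, by genotype tag, Clec4d (0.82), Clec4n (0.74) and Clec10a (-0.23) in stimulated 24 h cells. The cause was not tested. With no minimum fold, 9 receptors were called instead of 5 for the stimulus at 24 h, for time with stimulus and for the response between times. In stimulated 24 h cells the 3 genotype calls became 0 with only the groups compared, with the prior without trend, by tag and without the 4 libraries. The Clec4d call there was also lost with a robust prior (adjusted p = 0.071) and, at 0.0503 to 0.0533, without any 1 of 8 libraries of other groups. Leaving out each library gave 7 to 9 receptors called with stimulus at 6 h, 5 to 6 at 24 h, 4 to 4 for time without and 4 to 5 with stimulus, 5 to 6 for the response between times, 0 to 5 for genotype in stimulated 24 h cells, 0 to 4 for the added genotype difference in response at 24 h (0 with all libraries, 4 without stimulated titled NFAM1-/- replicate 1 and 1 without stimulated titled NFAM1+/+ replicate 2), and 0 for the other genotype comparisons. Where this left 1 library in a group, it was assumed to vary like the other groups. Leaving out each library gave 1 to 40 genes called in all for genotype without stimulus at 6 h (11 with all libraries), 0 to 126 with stimulus (0), 7 to 64 without stimulus at 24 h (37), 1 to 182 with stimulus (74), and 0 to 55 for the genotype difference in response at 6 h (0) and 1 to 107 at 24 h (35), the highest at 6 h with stimulus and in the response being without stimulated titled NFAM1+/+ replicate 2. Under the other settings, counts of all genes called changed by over 1.5 times as follows. At a mean of at least 5 CPM and with no minimum fold, stimulus at 6 h went from 5069 to 3275 and 10003, at 24 h from 4256 to 2554 and 9564, time with stimulus from 4308 to 2746 and 9763, and the response between times from 4024 to 2658 and 8588. Time without stimulus went from 2684 to 1446, 8233 and, with log2(CPM + 1), 1755. For genotype without stimulus at 6 h 11 became 5, 20 and, with log2(CPM + 1), 4, and with stimulus 0 became 5 (quantile), 1 (log2(CPM + 1)) and 3 (without the 4 libraries). Without stimulus at 24 h 37 became 21 (only the groups compared), 14 (prior without trend), 122 (no minimum fold), 2 (tag) and 4 (without the 4), and with stimulus 74 became 0, 5, 269, 3 and 14, and 42 with log2(CPM + 1). The genotype difference in response at 6 h went from 0 to 1 with log2(CPM + 1), and that at 24 h from 35 to 0 (only the groups compared), 4 (prior without trend), 69 (no minimum fold, with 1 receptor), 3 (tag) and 1 (without the 4). Own-total scaling moved the share of calls that were higher from 49% to 69.3% for time with stimulus and from 42.1% to 67.4% for the response between times, and centring moved the first to 37.8%. No paired analysis was run. Replicate numbers here were given in accession order, and the numbers in the titles differ between groups. No source used here ties a library to a mouse. The fit to only the groups compared gave no separate value for the response between times.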
